A study of Mus musculus with 10 samples.

Results

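The genes described here encode transporters of bicarbonate, protons and lactate, together with a membrane-bound carbonic anhydrase, in mouse embryonic fibroblasts held at 2% or 10% CO2. The set was chosen by name and holds 8 genes: Slc4a2, Slc4a3, Slc4a4, Slc4a7, Slc9a8, Slc16a1, Slc16a3 and Car12. Each was found once by its symbol among the 78317 genes of the count table, and all 8 passed the filter on low counts that left 13198 genes to test. None of them differed between the CO2 levels at an adjusted p under 0.05. The account below gives their levels and the smallest fitted change that would have passed.

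The cells were wildtype fibroblasts immortalized with T antigen, a viral protein that disables tumour suppressors including p53. Before that, every culture stood at 37 °C in complete medium under 10% CO2. The cells were then kept for 24 h at 10% CO2 (5 libraries) or moved to 2% CO2 (5 libraries), in a study of how autophagy responds to low CO2. Each level has replicates 1, 2 and 3 in batch 1, with replicates 4 and 5 in batch 2. What a batch was is not stated. The labels name a single cell line and do not say whether replicates were separate cultures, so the p-values reflect only how far these libraries spread, and that spread may be technical.

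Cultured cells meet CO2 through bicarbonate: at a fixed bicarbonate concentration in the medium, less CO2 means a higher pH. Cells hold their own pH with acid extruders, which bring in bicarbonate or push out protons, and acid loaders, which exchange bicarbonate for chloride. Lactate leaves glycolytic cells together with a proton, so lactate carriers are acid extruders too, and carbonic anhydrases speed the exchange between CO2 and bicarbonate. Slc4a4 encodes the electrogenic sodium bicarbonate cotransporter NBCe1 and Slc4a7 its electroneutral relative NBCn1. Slc4a2 and Slc4a3 encode the chloride-bicarbonate exchangers AE2 and AE3. Slc9a8 encodes the sodium-proton exchanger NHE8 of Golgi and endosomal membranes, and Car12 the carbonic anhydrase whose active site faces the outside of the cell. Slc16a1 and Slc16a3 encode the monocarboxylate carriers MCT1 and MCT4, of which MCT4 is known for lactate export from glycolytic cells.

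Depth was uneven, from 178676 to 12354538 estimated counts per library. The 3 shallowest libraries were 2% CO2 replicate 2 (178676 counts), 2% CO2 replicate 3 (506405) and 10% CO2 replicate 5 (892318), where 1 count equals 5.60, 1.97 and 1.12 CPM (counts scaled to 1000000 in each library). Of 9 fibroblast markers 8 had counts in every library and 1 (Pdgfra) was at 0 in a single library. Their summed level was 4688 to 8751 CPM at 2% CO2 and 8563 to 13263 CPM at 10% CO2. The defining genes of other cell types were at or near 0, with summed levels of 0 to 11.2 CPM for 5 epithelial genes and 0 to 3.95 CPM for 4 leukocyte genes. For 4 endothelial genes the sum was 7.90 to 15 CPM at 2% CO2 and 4.07 to 7.73 CPM at 10% CO2. Of these, Tie1 was at 0 throughout and Kdr made up most of the rest. The part of these markers, fibroblast or endothelial, in any result here was not tested.

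**Figure D1:**
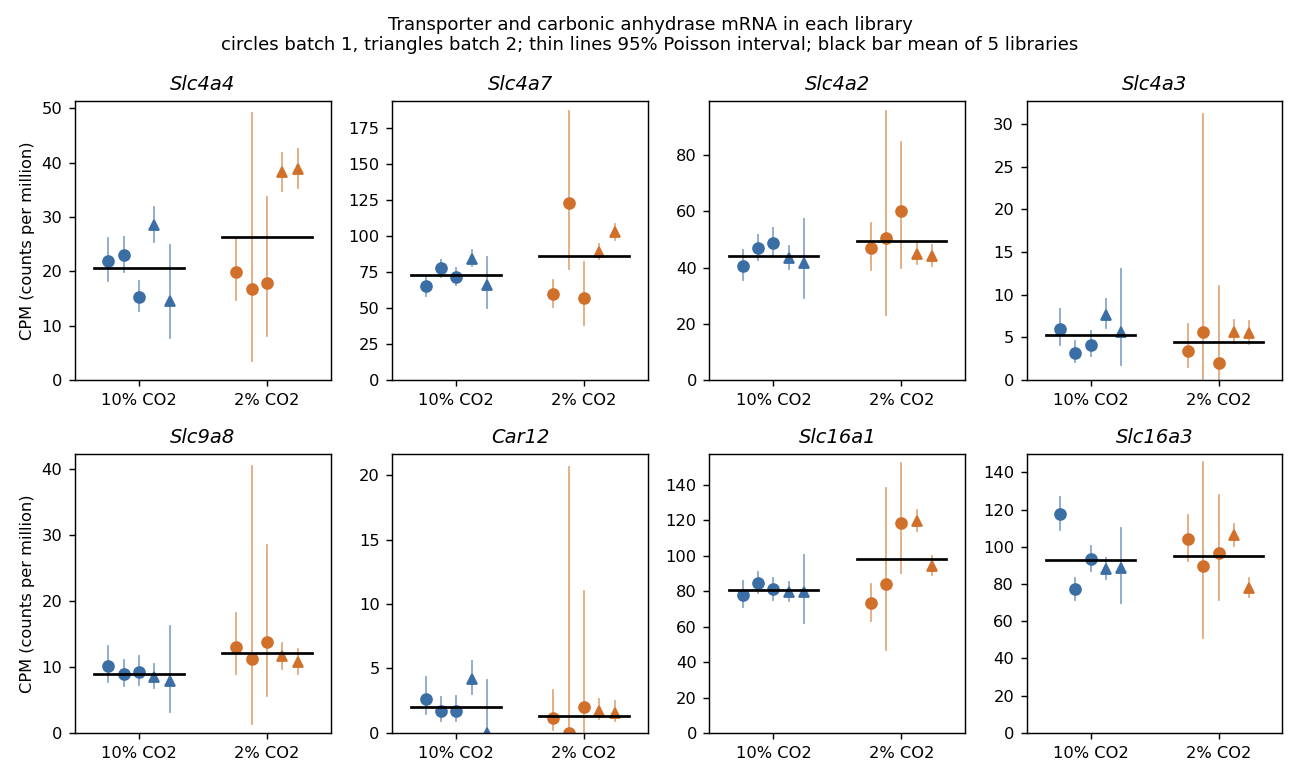
Level of each of the 8 genes in CPM (y axis, from 0) in the 5 libraries at 10% CO2 and the 5 at 2% CO2, in order of replicate number. Circles are batch 1 and triangles batch 2, thin lines are 95% Poisson intervals of the count (counting error only), and black bars are means. The intervals are widest for 2% CO2 replicate 2, and the CO2 levels are apart only for Slc9a8, where 10.7 to 13.8 CPM stood against 7.84 to 10.2 CPM. In CPM 5.18% of all genes tested were apart, and with the library scaling used in the test the ranges of Slc9a8 overlapped.

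With batch in the model, the edgeR quasi-likelihood test called 0 of the 8 genes between 2% and 10% CO2, where 12% of all genes tested were called. Neither DESeq2 nor limma-voom called any of them, though DESeq2 gave Car12 no adjusted p. At an unadjusted p under 0.05 there were 2 of 8, Slc9a8 and Car12, against 26.1% of all genes tested. The fitted differences were positive at 2% CO2 for 5 genes and negative for 3, with a median log2 fold change of 0.03 and a median size of 0.23. Over all genes tested the median was 0.003 and the median size 0.21. Among all genes 700 (5.3%) were called higher and 888 (6.73%) lower, a balance that became 1031 higher and 614 lower with scaling to the library total, under which the 8 genes still gave 0 calls. Since these are bulk samples, fewer cells that carry a transcript cannot be told apart from less of it per cell.

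The spread between libraries set a floor for what could be called. At its own standard error (SE), and at the largest raw p still called (0.00599), Slc16a1 would have needed a fitted rise of 29.5% or fall of 22.8%. A true change of that size would not always pass, since fitted values scatter around it. The same limits were 32.8% and 24.7% for Slc4a7 and 33.9% and 25.3% for Slc16a3. They widened to 40.7% and 28.9% for Slc9a8 and 45.3% and 31.2% for Slc4a4. For the low genes they were 69.2% and 40.9% (Slc4a3) and 129% and 56.3% (Car12). Leaving out 10% CO2 replicate 4 raised the SE of Slc4a3 from 0.24 to 0.39 and that of Car12 from 0.38 to 0.60, and their limits with it. No limit is given for Slc4a2, whose SE, a ratio of small values for this gene, was not stable. With all libraries it was 0.15 in the main fit, 0.12 with scaling to the library total and 0.45 with no filter on low counts. It was 0.62 without 10% CO2 replicate 3 and 0.32 without 2% CO2 replicate 5. For scale, 94.1% of the 1588 called genes had a log2 fold change at least as large as the limit of Slc16a1, and 9.45% had one as large as that of Car12. The called genes had themselves passed limits of this kind, so these are not shares of true changes that would be seen.

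**Figure D2:**
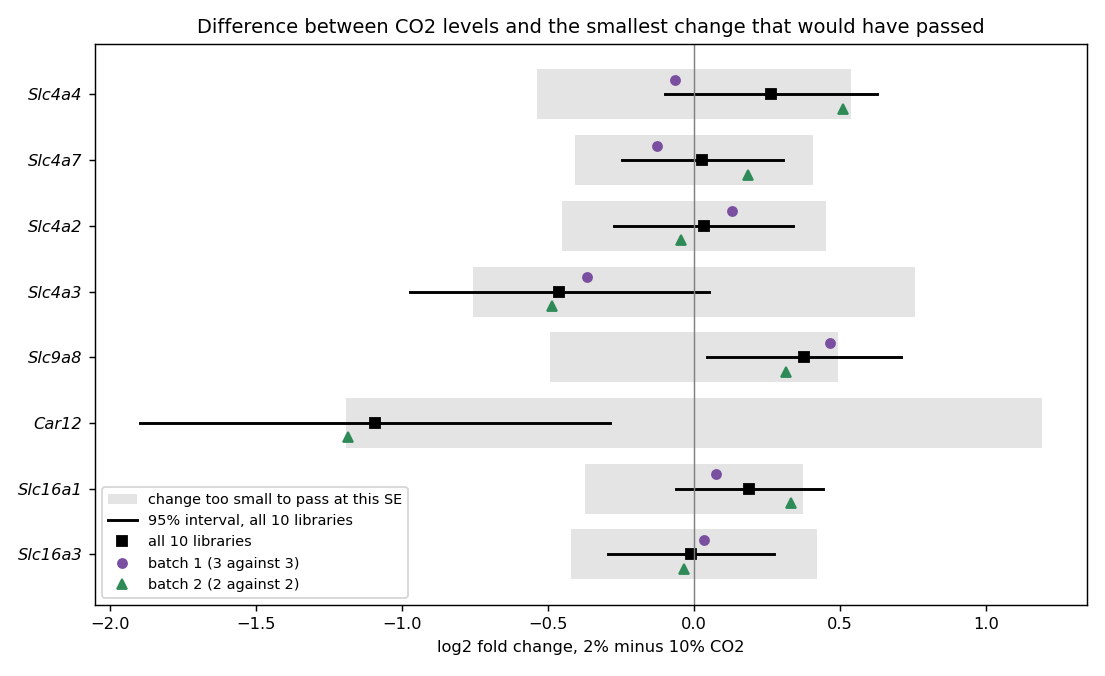
Log2 fold change of each gene, 2% minus 10% CO2 (x axis). Black squares and lines are the fit over 10 libraries with its 95% interval, circles and triangles the fits of batch 1 and batch 2 alone, and grey bands the changes too small to pass at that gene's SE. All 8 squares lie within the bands, which restates that none was called, and the band of Slc4a2 rests on an SE that was not stable. The batches have opposite signs for Slc4a4, Slc4a7, Slc4a2 and Slc16a3, while Car12 was too low to test in batch 1.

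Among the acid extruders that carry bicarbonate, Slc4a4 (ENSMUSG00000060961) was at 22, 22.9, 15.3, 28.5 and 14.6 CPM in replicates 1 to 5 at 10% CO2. At 2% CO2 it was at 19.8, 16.8, 17.8, 38.2 and 38.8 CPM. The deep libraries of batch 2 at 2% CO2 were thus above all others, while the batch 1 libraries of both levels overlapped. Replicates 2 and 3 at 2% CO2 rested on 3 and 9 counts, with Poisson intervals of 3.46 to 49.1 and 8.13 to 33.7 CPM. It averaged 26.3 ± 11.2 CPM in the 2% and 20.6 ± 5.78 CPM in the 10% libraries (SD, n = 5 each). The log2 fold change was 0.26 ± 0.17 (SE; edgeR adjusted p = 0.364), a 1.20-fold level with a 95% interval of 0.934 to 1.55.

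Within batches Slc4a4 gave the widest gap among the 7 genes tested in both. Its log2 fold change was -0.06 ± 0.25 in batch 1 and 0.51 ± 0.21 in batch 2 (SE), with edgeR adjusted p of 0.923 and 0.223. The difference between the batches, tested as an interaction, was 0.57 ± 0.33 (SE; edgeR adjusted p = 0.641). In batch 2 the 10% CO2 libraries themselves stood at 28.5 and 14.6 CPM, the lower one from 13 counts, with a Poisson interval of 7.76 to 24.9 CPM. Its level was also higher in batch 2 than in batch 1 over both CO2 levels, by 0.57 ± 0.17 on the log2 scale (SE; edgeR adjusted p = 0.0132).

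Slc4a7 (ENSMUSG00000021733) was at 65.1, 77.5, 71.5, 84.4 and 66.1 CPM at 10% CO2 and at 59.5, 123, 57.3, 89.2 and 103 CPM at 2% CO2 in replicates 1 to 5. The 2% CO2 libraries lay both below and above those at 10% CO2. The highest value came from the shallowest library, where 22 counts gave a Poisson interval of 77.2 to 186 CPM. The means were 86.3 ± 28.2 and 72.9 ± 8.09 CPM (SD, n = 5 each), and on the log2 scale the fitted difference was 0.03 ± 0.13 (SE; edgeR adjusted p = 0.945). The 95% interval of its fold, 0.842 to 1.23, spans changes in both directions. The interval and the limits given above come from the same SE, so its lying inside them adds nothing. Fractional counts occurred in 4 libraries.

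For the acid loaders, Slc4a2 (ENSMUSG00000028962) was at 40.6, 47.0, 48.9, 43.5 and 41.5 CPM at 10% CO2 and at 46.9, 50.4, 60.2, 44.9 and 44.1 CPM at 2% CO2. In CPM each 2% CO2 library was above the 10% CO2 library of its number, yet the ranges overlapped, and with TMM scaling replicates 2, 4 and 5 ran the other way. After TMM scaling, which puts libraries on a common footing through the bulk of their genes, the log2 fold change was 0.03 ± 0.15 (SE; edgeR adjusted p = 0.939). In an annotation of another build (GENCODE M21), 1141 of its 8322 exon bases overlap Fastk on the opposite strand. The sources used here do not state whether counting used strand, so reads of both genes in that stretch may not be told apart.

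Slc4a3 (ENSMUSG00000006576), known from excitable tissues such as heart and brain, was low, with 328 counts over all libraries. At 10% CO2 it was at 5.97, 3.23, 4.07, 7.64 and 5.60 CPM and at 2% CO2 at 3.43, 5.60, 1.97, 5.58 and 5.48 CPM. Replicates 2 and 3 at 2% CO2 rested on 1 count each, and the ranges of the levels overlapped. The log2 fold change was -0.46 ± 0.24 (SE; edgeR adjusted p = 0.244), and the 95% interval of the fold ran from 0.509 to 1.04. It was -0.37 ± 0.49 in batch 1 and -0.49 ± 0.26 in batch 2 (SE). Across both CO2 levels Slc4a3 was higher in batch 2 by 0.73 ± 0.24 on the log2 scale (SE; edgeR adjusted p = 0.0238).

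Batch thus separated 2 of the 8 genes, Slc4a3 and Slc4a4, where 36% of all genes tested differed between the batches. Leaving out replicate 4 at 10% CO2 removed both calls, where 3253 of 13062 genes were called. Leaving out replicate 5 at 10% CO2 added Slc4a7 and Car12, for 4 in all, where 5260 of 13735 genes were called. Slc4a4 was the only call without replicate 2 or without replicate 3 at 10% CO2, and Slc4a3 the only one without replicate 1 at 2% CO2. Over all genes those fits called 4975 of 13070, 4081 of 13079 and 3882 of 13662. The CO2 by batch interaction was called by edgeR for 0 of the 8 genes and for 0% of all genes tested. At an unadjusted p under 0.05 there were 0 of 8, against 8.75% of all genes.

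The proton exchanger gene Slc9a8 (ENSMUSG00000039463) was the one whose CO2 levels stood apart. Its level at 10% CO2 was 10.2, 8.90, 9.26, 8.48 and 7.84 CPM in replicates 1 to 5, against 13, 11.2, 13.8, 11.6 and 10.7 CPM at 2% CO2. All 5 libraries at 2% CO2 were above all 5 at 10% CO2, a separation in CPM, in either direction, that 5.18% of all genes tested showed. With TMM-scaled CPM, where 5.52% of genes were apart, the ranges overlapped, 10.1 CPM in 2% CO2 replicate 5 against 10.6 CPM in 10% CO2 replicate 1. The means were 12.1 ± 1.30 and 8.94 ± 0.875 CPM (SD, n = 5 each).

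The log2 fold change of Slc9a8 was 0.38 ± 0.16 (SE), a 1.30-fold level with a 95% interval of 1.03 to 1.63. It did not pass (edgeR adjusted p = 0.134). The batches gave like values, 0.46 ± 0.26 in batch 1 and 0.32 ± 0.22 in batch 2 (SE). In none of the other settings tried was it called, and its log2 fold change ran from 0.31 to 0.46 with adjusted p of 0.0804 to 0.466. Its counts were small in the shallow libraries, 2 and 7 in 2% CO2 replicates 2 and 3 and 7 in 10% CO2 replicate 5.

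Car12 (ENSMUSG00000032373) was the lowest of the set, with 132 counts in all. At 10% CO2 replicates 1 to 5 held 15, 15, 14, 44 and 0 counts, or 2.63, 1.67, 1.73, 4.15 and 0 CPM. At 2% CO2 they held 3, 0, 1, 21 and 19 counts, or 1.14, 0, 1.97, 1.70 and 1.58 CPM. The libraries at 0 were shallow, and 3 counts in them would equal 3.36 CPM (10% CO2 replicate 5) and 16.8 CPM (2% CO2 replicate 2). The highest value, in 10% CO2 replicate 4, had a Poisson interval of 3.01 to 5.57 CPM. This interval lay wholly above those of 10% CO2 replicates 2 and 3 and of 2% CO2 replicates 4 and 5. It overlapped those of 10% CO2 replicates 1 and 5 and of 2% CO2 replicates 1, 2 and 3.

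Its log2 fold change was -1.09 ± 0.38 (SE), a 0.469-fold level with a 95% interval of 0.268 to 0.819, which missed the threshold (edgeR adjusted p = 0.0718). The value rested on 1 library: without 10% CO2 replicate 4, and with the genes of the full test kept, it was -0.17 ± 0.60 (SE; edgeR adjusted p = 0.936). Without 10% CO2 replicate 5, the library at 0, it was -1.29 and was called (edgeR adjusted p = 0.0169), where 1724 of 13735 genes were. Car12 was also called without the 3 shallowest libraries, at -1.31 (edgeR adjusted p = 0.0330). Limma-voom gave -0.37 (adjusted p = 0.622). In batch 2 alone it was -1.19 ± 0.52 (SE; edgeR adjusted p = 0.253).

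For the lactate carriers, Slc16a1 (ENSMUSG00000032902) was at 78.0, 84.7, 81.3, 79.6 and 79.6 CPM at 10% CO2, the narrowest spread of the 8 genes in relation to its mean. At 2% CO2 it was at 73.4, 84.0, 118, 120 and 94.4 CPM. Replicates 3, 4 and 5 at 2% CO2 were above every 10% CO2 library, and replicate 1 was below them all. The means were 98.0 ± 20.7 and 80.6 ± 2.59 CPM (SD, n = 5 each). The log2 fold change was 0.19 ± 0.12 (SE; edgeR adjusted p = 0.347), with a 95% interval of the fold from 0.957 to 1.36. It was 0.08 ± 0.16 in batch 1 and 0.33 ± 0.15 in batch 2 (SE), and the interaction was 0.25 ± 0.23 (SE; edgeR adjusted p = 0.782).

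Slc16a3 (ENSMUSG00000025161), known from other systems as a gene that hypoxia-inducible factor raises, was at 118, 77.2, 93.4, 88.3 and 88.5 CPM at 10% CO2. At 2% CO2 it was at 104, 89.5, 96.8, 106 and 78.1 CPM. The range at 2% CO2 fell wholly within that at 10% CO2. The means were 95 ± 11.5 and 93.0 ± 15 CPM (SD, n = 5 each), and on the log2 scale the fitted difference was -0.01 ± 0.14 (SE; edgeR adjusted p = 0.987). The 95% interval of the fold, 0.816 to 1.21, spans changes in both directions. No fractional counts occurred for this gene.

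Ratios of 2 genes within a library do not depend on how libraries are scaled. The log2 ratio of Slc16a3 to Slc16a1 was -0.03 ± 0.33 at 2% CO2 and 0.19 ± 0.26 at 10% CO2 (SD, n = 5 each), and the levels overlapped. The mean difference was -0.12 in batch 1 and -0.38 in batch 2. The log2 ratio of the loader Slc4a2 to the extruder Slc4a7 was -0.75 ± 0.59 against -0.72 ± 0.15 (SD, n = 5 each), with differences of opposite sign in the batches, 0.13 and -0.29. That of Slc4a7 to Slc4a4 was 1.75 ± 0.65 against 1.86 ± 0.32 (SD, n = 5 each), again with opposite signs, 0.20 and -0.56. Over all 10 libraries these mean differences were smaller than the SD within a level. In batch 2 alone the ratio of Slc16a3 to Slc16a1 was 0.15 and 0.15 at 10% CO2 and -0.17 and -0.27 at 2% CO2, apart but with 2 libraries a level and no test. The levels were apart in batch 2 for the other ratios as well, both of which hold Slc4a7. With so few libraries a level such a separation arises easily, and its share over other gene pairs was not computed.

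**Figure D3:**
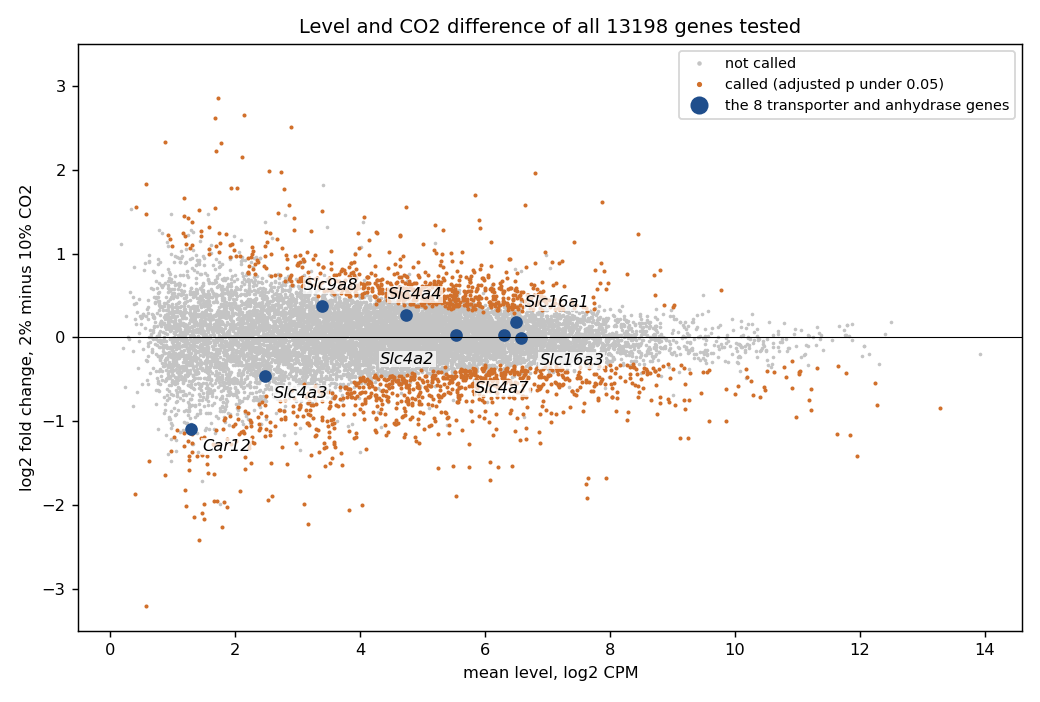
Mean level (x axis, log2 CPM) and log2 fold change, 2% minus 10% CO2 (y axis), of all 13198 genes tested, with the called genes in orange and the 8 genes as large blue points. Slc4a2, Slc4a7, Slc16a1 and Slc16a3 lie near 0 at levels where 14.4% to 16.2% of genes were called, and Car12 lies lowest at the left edge, where 4.77% were called.

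The chance of a call rose with level in these data. Of genes between 4 and 6 log2 CPM, which include Slc4a2 and Slc4a4, 14.4% were called, and of those between 6 and 8, which include Slc4a7, Slc16a1 and Slc16a3, 16.2%. The share was 8.76% between 2 and 4 log2 CPM, where Slc4a3 and Slc9a8 lie, and 4.77% below 2, where Car12 lies. Within batches the edgeR test called 0 of the 7 genes tested in batch 1, where 6.22% of all genes were called. It called 0 of 8 in batch 2, where 1.83% were. At an unadjusted p under 0.05 there were 0 of 7 in batch 1, against 23% of all genes, and 2 of 8 in batch 2 (Slc4a4 and Car12), against 19.2%.

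Other genes of acid, bicarbonate and lactate handling were taken from 7 lists with 89 genes in the table, of which 31 could be tested. Of these 0 rose, 1 fell and 30 did not pass, with a median log2 fold change of 0.14. The share called was 3.23%, beside 12% of all genes tested in either direction and 6.73% lower. The one that fell was Nherf1, a scaffold that tethers sodium-proton exchangers and other membrane proteins to ezrin and actin. Its lowest, median and highest levels were 11.2, 23.5 and 29.6 CPM at 2% CO2 and 31.6, 34.5 and 39.9 CPM at 10% CO2. The lowest value, 11.2 CPM, is the level of 2 counts in the shallowest library. The levels did not overlap, a separation in CPM, in either direction, that 5.18% of all genes tested showed. Nherf1 fell by 0.60 ± 0.13 on the log2 scale (SE; edgeR adjusted p = 0.00573). It was called in every setting tried except each batch alone, where it was -0.58 and -0.60 with edgeR adjusted p of 0.103 and 0.0906.

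Chp1, a calcium-binding partner of sodium-proton exchangers, was at -0.15 ± 0.10 on the log2 scale (SE; edgeR adjusted p = 0.419), short of the threshold. Among 4 tested genes of monocarboxylate carriers and their chaperones 0 passed, and the median was 0.52. Slc16a6 differed by 1.01 ± 0.35 on the log2 scale (SE; edgeR adjusted p = 0.0691), with 3.07 to 16.8 CPM at 2% CO2 and 0 to 2.34 CPM at 10% CO2. The highest of these values was 3 counts in the shallowest library. Slc16a6 was called by limma-voom (adjusted p = 0.0325) and by edgeR with no filter (adjusted p = 0.0485). Slc16a10, a carrier of aromatic amino acids, differed by 0.73 ± 0.28 (SE; edgeR adjusted p = 0.0996) and was called without 10% CO2 replicate 4 (adjusted p = 0.0389). Bsg (basigin, which escorts MCT1 and MCT4 to the cell surface) averaged 867 ± 224 CPM in the 2% and 657 ± 123 CPM in the 10% libraries (SD, n = 5 each). Its difference was 0.32 ± 0.13 on the log2 scale (SE; edgeR adjusted p = 0.115).

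Lactate and pyruvate genes gave 0 calls among 10 tested, with a median of 0.17. Ldha, the lactate dehydrogenase subunit that favours lactate formation, averaged 1393 ± 437 CPM in the 2% and 1091 ± 362 CPM in the 10% libraries (SD, n = 5 each). Its log2 fold change was 0.28 ± 0.10 (SE; edgeR adjusted p = 0.0878). Pdhb, a subunit of pyruvate dehydrogenase, came nearest to the threshold at 0.37 ± 0.12 (SE; edgeR adjusted p = 0.0503), and Pdk1, a kinase that inhibits this enzyme, differed by 0.71 ± 0.26 (SE; adjusted p = 0.0895). Each of Ldha, Pdhb, Bsg and Pdk1 was called without the 3 shallowest libraries, with log2 fold changes of 0.41, 0.47, 0.59 and 0.87 (edgeR adjusted p of 0.0401, 0.0156, 0.00794 and 0.0242). In that fit Slc16a7, of the monocarboxylate list and not tested in the main fit, was called lower, as with no filter. It was also called lower when 10% CO2 replicate 1 or 5, or 2% CO2 replicate 1, 2 or 4, was left out alone. The other fits without 1 library did not call it, nor did batch 2 alone (edgeR adjusted p = 0.123). How many of all genes that fit called is not given here. Ldha and Pdhb were also called by DESeq2, limma-voom and with library total scaling. Under that scaling the median log2 fold change over all genes tested was 0.07.

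The remaining lists held few genes at testable levels, and 0 of their members passed. Of 15 other carbonic anhydrases 2 were tested, Car5b (mitochondrial) at a log2 fold change of -0.36 ± 0.39 and Car13 (cytosolic) at -0.12 ± 0.18 (SE). Car9, a surface anhydrase known as a target of hypoxia-inducible factor, had 23 counts over all libraries and was not tested. Of 11 SLC26 anion exchangers 3 were tested, Slc26a2, Slc26a11 and Slc26a6, at -0.28, 0.36 and -0.03. Of the other SLC4 list only Slc4a1ap could be tested (0.09). Among genes of acid and bicarbonate sensing 5 of 12 were tested, led by Ahcyl2, a relative of the bicarbonate transport regulator IRBIT, at 0.40 ± 0.16 (SE; edgeR adjusted p = 0.104), with Stk39 at -0.30 and Oxsr1 at -0.13.

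**Figure D4:**
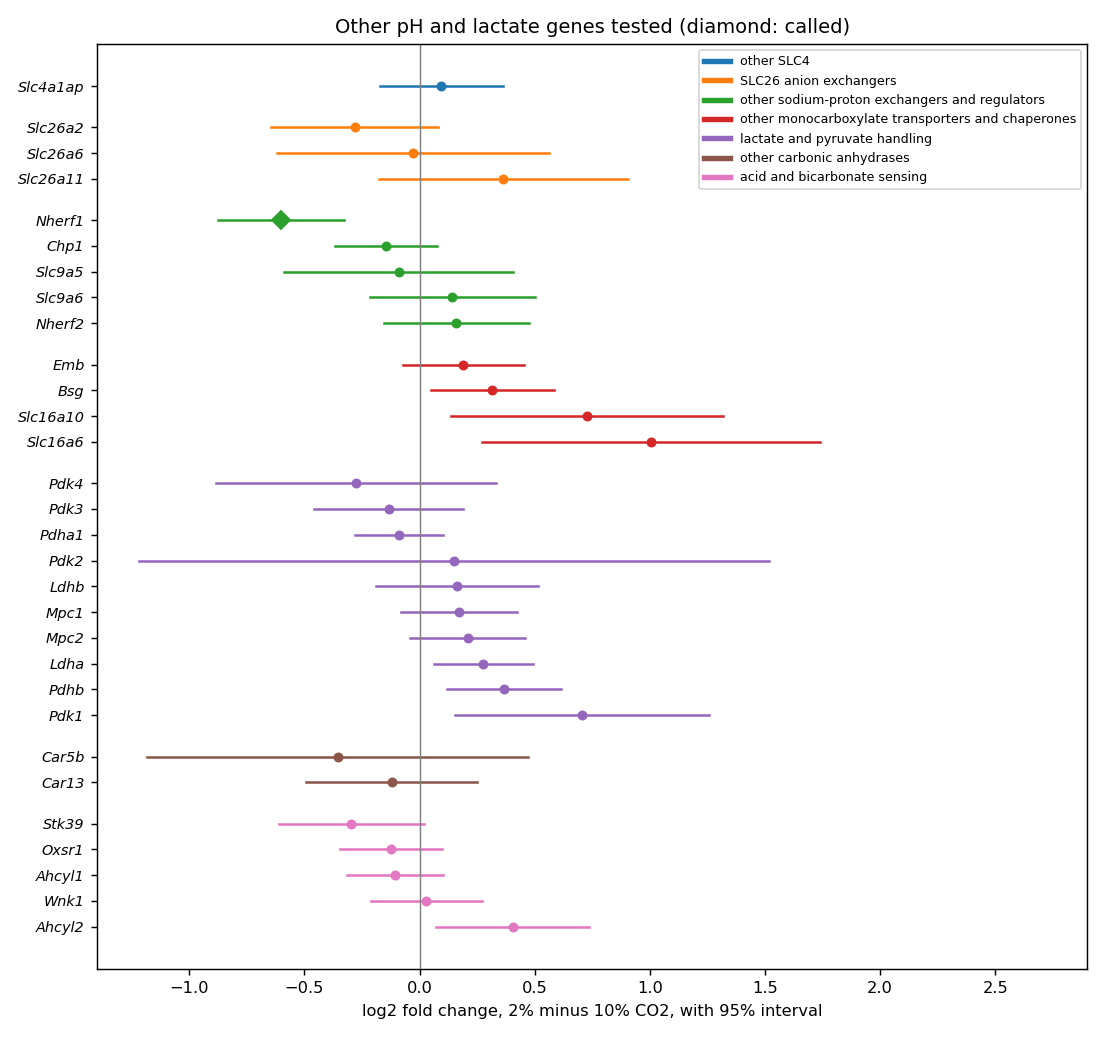
Log2 fold change, 2% minus 10% CO2 (x axis), with its 95% interval for 30 of the 31 tested genes of the 7 other lists, coloured by list. Nherf1, the diamond at -0.60, is the one gene called; Slc16a6 has the highest value, 1.01, with an interval from 0.27 to 1.74.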

How the data were processed

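Per the submitters' processing notes, the tools were STAR 2.7.11, SAMtools 1.22.1, Subread 2.1.1 with featureCounts, and MultiQC 1.32, on build GRCm39. The sources used here give neither their settings nor the annotation. Per the labels' protocols, cDNA was tagmented and amplified, with no statement of strand or molecular identifiers. The authors deposited estimated counts for each gene, of which 71.0% to 79.2% of the nonzero values per library are whole to within 1e-06. The deposited CPM table equals the counts divided by the library total to within 4.8e-05 and served only as that check. The 92 spike-in rows, all at 0, were left out.

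Rounded counts entered edgeR 4.0.16 (R 4.3.3). Genes were kept by filterByExpr on the CO2 level, with a minimum count of 10 and a minimum total of 15. Libraries were scaled by TMM, and batch and CO2 were fitted by robust quasi-likelihood, with two-sided tests and Benjamini-Hochberg adjustment over all 13198 genes, with 0.05 as the threshold. Alternatives used DESeq2 1.42.0 and limma 3.58.1. The SE is the log2 fold change divided by the t quantile of its p, and intervals are at 95%. Poisson intervals and the floor of 3 counts cover counting error only. Depth ran from 178676 to 12354538 counts.

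The members and lists were chosen with earlier results of these data known. All members are named. From each list the 3 genes with the smallest adjusted p, any called gene, and Bsg, Ldha and Car9 are named, except that some results are not reported here. Genes most like a called member were to be named too, and there was no called member. Fastk and the marker genes were named after their values were seen. No genome of the files' build was used, so no coordinates are given. Gene overlaps came from GENCODE M21, another build.

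Both CO2 levels use replicate numbers 1 to 5. With group and batch means removed, same-numbered libraries correlated at 0.17, 0.10, 0.04, 0.19 and 0.19. With 2 libraries a level in batch 2, its values are equal by construction. Libraries of unlike number were not compared, so these values cannot decide pairing. The main fit did not take the numbers to pair libraries beyond batch, and a fit with the number as a block is given below. None of the 8 library pairs within a level and batch agreed within sampling noise.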

Additional observations from a re-analysis of the deposited data

How the results depend on the processing

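Depth was one limit, since 3 libraries under 1000000 counts give the low genes few counts. The count of the 8 genes called stayed at 0 in all settings except without the 3 shallowest libraries (1, Car12) and among fits without 1 library (0 to 1, Car12 without 10% CO2 replicate 5). It was 0 with the replicate number as a block in place of batch, which moved the calls over all genes from 1588 to 1927. In batch 2 alone with no filter, 1 of the 8 was called (Slc4a4), where 1211 of 28474 genes were. The interaction was called for 0 of the 8 under the scalings, filters and left-out libraries tried, and was not fitted with DESeq2, limma-voom or the block. Of the 8 genes, 1 was called for batch with a filter of 10 CPM in 5 libraries, where 3978 of 9090 genes were. Without the 3 shallowest libraries 4 were, where 4873 of 14244 genes were. Without 1 library 0 to 4 were, where 3253 to 5260 genes were.

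Calls among the other pH and lactate genes are given with the calls over all genes in brackets. They numbered 2 of 31 tested with RLE scaling (1624 of 13198) and 4 of 31 with library total scaling (1645 of 13198). They were 5 of 73 with no filter (1693 of 31794) and 2 of 23 with the 10 CPM filter (1480 of 9090). DESeq2 gave 3 of 31 (1688 of 13198) and limma-voom 4 of 31 (1550 of 13198). The replicate block gave 4 of 31 (1927 of 13198), namely Nherf1, Slc16a6, Slc16a10 and Pdhb. Without the 3 shallowest libraries there were 6 of 36, with the calls over all genes not given here. There were 0 of 29 in batch 1 and 0 of 37 in batch 2, and 1 to 5 without 1 library. Over all genes, 351 were called without the batch term (125 higher, 226 lower), 763 in batch 1 (326 and 437) and 267 in batch 2 (124 and 143). Without 1 library there were 736 to 1724 (266 to 731 higher, 470 to 1040 lower), the lowest without 10% CO2 replicate 4.

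Signs turned for some genes, none of them called in the setting concerned: Slc16a3 was at 0.060 with library total scaling, 0.0067 with limma-voom, 0.058 without the 3 shallowest libraries and 0.035 in batch 1. Slc4a7 was at -0.060 without the 3 shallowest libraries and -0.13 in batch 1, Slc4a4 at -0.064 in batch 1 and Slc4a2 at -0.044 in batch 2. Slc26a6 was at 0.033 with library total scaling and 0.0072 with the replicate block, and Car5b at 0.24 with limma-voom. Without 1 library, Slc16a3 ran from -0.10 to 0.081, Slc4a7 from -0.051 to 0.12, Slc4a2 from -0.013 to 0.075 and Slc26a6 from -0.16 to 0.15. The causes were not tested. Leaving out a library with the genes of the full test kept was added after seeing the data.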

Other observations

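Promoter windows of 300 bases around each gene's start, from RefSeq (build GRCm38.p6), were searched on both strands for a few short motifs. The 8 genes have 10 windows among 32851 in all. The E-box CACGTG lay in 1 of the 10 (Slc16a1) and in 7.15% of all windows. The motif ACGTG, which CACGTG contains, lay in 2 of the 10 (Slc16a1 and Slc16a3) and in 19.6% of all windows. The motif GCGTG lay in 4 of the 10 (Slc4a2, Slc4a3, Slc4a4 and Slc16a1) and in 32.4% of all windows. A match describes the letters, not a site.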
